A study of Mus musculus with 4 samples.

Results

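The mitochondrial ribosomal protein genes carry the mouse symbols Mrpl (large subunit) and Mrps (small subunit) followed by a number. Members were the genes of these symbols, without pseudogenes, that had at least 50 counts in every library: 77 of 78 such genes, out of 53647 genes in the deposited tables. There were 48 large and 29 small subunit members, on 17 chromosomes. Within the family, members were chosen by their counts in all libraries and not by the difference between groups, and every member passed the filter on low counts. The family itself was chosen with earlier results of these data known.

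RNA was sequenced from 4T1 cells, a wild-type line derived from a mammary carcinoma of the mouse, that had received uniSTING mRNA (2 libraries) or, as Mock, EGFP mRNA (2 libraries). uniSTING is a synthetic mimic of STING, an adaptor protein of innate immunity that acts upstream of type I interferon, and EGFP is a green fluorescent protein. All cells were grown in RPMI1640 with serum and received mRNA either with a transfection reagent or in SS-OP lipid nanoparticles. The labels do not say which carrier a library had, nor the dose or the time, and they name the libraries of a group preparations 1 and 2. They do not say that preparations were separate cultures, so the p-values here rest on a spread between libraries that could be purely technical.

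Mitochondria translate the few mRNAs of their own DNA on a ribosome of their own. Its rRNAs are made from mitochondrial DNA, whereas all of its proteins are encoded in the nucleus, made in the cytosol and imported. The small subunit holds the decoding centre, and the large subunit holds the peptidyl transferase centre and the exit tunnel, through which the chains of the respiratory complexes leave. Several of the proteins have a counterpart in bacterial ribosomes and others are found in mitochondrial ribosomes alone.

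Total counts were 18843543 and 25071840 in the uniSTING libraries, and 17502694 and 22039546 in the Mock libraries, with between 17604 and 18478 genes that had a count. The common coefficient of variation within groups was 3.15%. All 5 epithelial markers checked (Epcam, Krt8, Krt18, Cdh1 and Krt14) were expressed, Krt8 at 1320 and 1310 CPM in uniSTING libraries, and 1260 and 1280 CPM in Mock libraries. CPM are counts scaled to the normalised library total. Of 9 markers of other cell types, 5 were under 1 CPM in every library. The summed level of all 9 was 10.2 to 13.2 CPM in uniSTING libraries and 8.42 to 11.5 CPM in Mock libraries, most of it Pdgfra. Pdgfra was 1.29-fold higher in uniSTING (edgeR adjusted p = 0.0243), and the epithelial marker Cdh1 was lower, at 545 ± 0.304 CPM in uniSTING and 627 ± 5.63 CPM in Mock (SD, n = 2 each, edgeR adjusted p = 2.79e-06). The part of these markers in the results was not tested.

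Mitochondrial ribosomal protein mRNAs were higher in uniSTING than in Mock cells in most cases. Of the 77 members, 58 rose, none fell and 19 did not pass (edgeR's quasi-likelihood test, Benjamini-Hochberg adjusted p under 0.05 over 12972 genes). That is 75.3% of members called higher, where 24.9% of all tested genes were called higher and 25.4% lower, or 50.2% in either direction. With DESeq2 46 members rose, where 2159 of all tested genes were called higher and 2358 lower. The count of members that fell was 0 with edgeR, DESeq2 and limma-voom. The count with a negative fold change at an unadjusted p under 0.05 was also 0 in each of these. The changes were small: the median log2 fold change was 0.26, against 0.0058 over all tested genes, with a range from -0.086 for Mrps31 to 0.77 for Mrpl20. At least 1.25-fold rises were called in 28 members (12.7% of all tested genes) and at least 1.5-fold rises in 5 (5.19% of all tested genes).

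Both preparation numbers showed it, though the labels do not say that libraries of the same number share a batch. The median log2 difference over members was 0.26 in preparation 1 and 0.26 in preparation 2. In 66 members the uniSTING library was above the Mock library in both preparations, in 5 it was below in both, and in 6 the sign was mixed. Both uniSTING libraries lay above both Mock libraries for 66 members, or 85.7%, against 37.8% of all tested genes. They lay below both Mock libraries for 3 members, against 37.3% of all tested genes, and the other 8 overlapped. The median coefficient of variation of a member within its group was 2.34% in uniSTING and 2.72% in Mock.

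**Figure D1:**
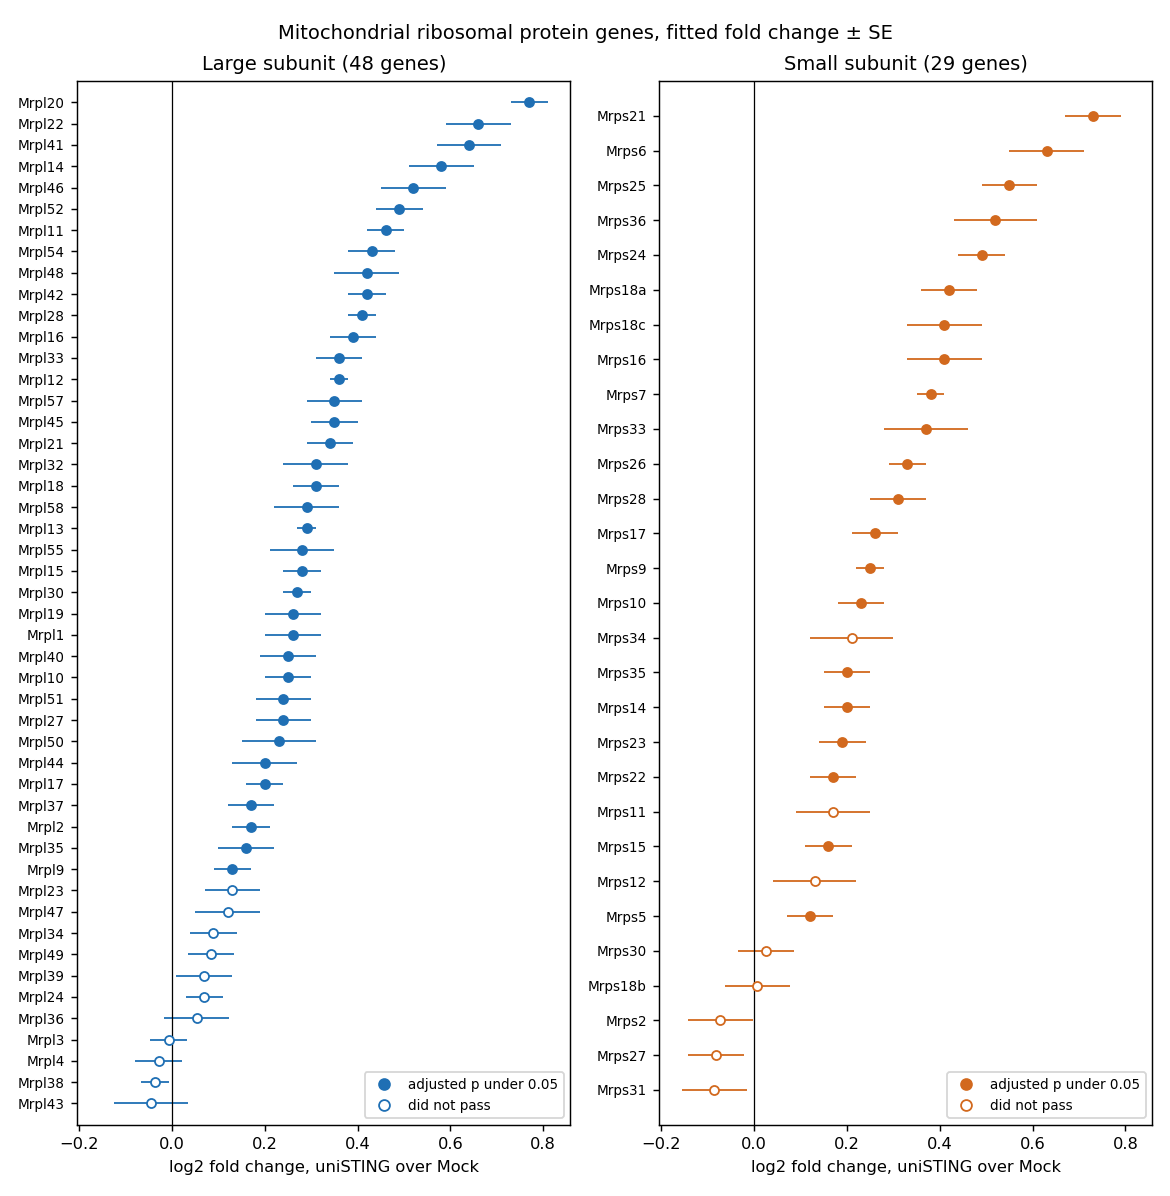
Fitted log2 fold change of each member, uniSTING over Mock (x axis), with its standard error as a bar; large subunit genes left, small subunit genes right, ordered by fold change. Filled points passed at an adjusted p under 0.05 and open points did not: the 58 filled points all lie to the right of 0, and the highest are Mrpl20 (0.77) and Mrps21 (0.73).

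Summed over members, the family took 0.481% and 0.48% of all counts in the uniSTING libraries, and 0.4% and 0.403% in the Mock libraries. In CPM these sums were 4833 and 4835 in uniSTING libraries, and 3976 and 4015 in Mock libraries, a ratio of 1.21, and the groups did not overlap. The sum is led by a few abundant mRNAs: the mean level of a member was between 14.3 and 278 CPM, with a median of 50.6 CPM. CPM are shares of a library, so a change in the RNA of a cell and a change in the makeup of the cells cannot be told apart.

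Genes of both subunits rose. Of 48 large subunit genes 37 rose (77.1%, median log2 fold change 0.27), and of 29 small subunit genes 21 rose (72.4%, median 0.23). The ratio of summed large to summed small subunit CPM was 2.34 and 2.28 in uniSTING libraries, and 2.29 and 2.28 in Mock libraries. These values overlap. Some symbols do not match the protein's place: Mrps30 and Mrps18a belong to the large subunit in the assembled mammalian ribosome, and Mrps36 is a component of the oxoglutarate dehydrogenase complex. With genes placed in this way, 38 large and 19 small subunit genes rose, with medians of 0.27 and 0.22.

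In the large subunit the largest rise was that of Mrpl20 (ENSMUSG00000029066, GRCm39 chr4:155887335-155894432), the counterpart of a bacterial protein that binds rRNA early in assembly. It had 101 and 101 CPM in uniSTING libraries, and 57.8 and 59.9 CPM in Mock libraries. The groups lay far apart, at 101 ± 0.372 CPM in uniSTING and 58.8 ± 1.52 CPM in Mock (SD, n = 2 each). The fold was 1.71 (log2 fold change 0.77, SE 0.04, edgeR adjusted p = 2.55e-08).

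Mrpl22 (ENSMUSG00000020514, GRCm39 chr11:58062487-58070391), which lines the exit tunnel, had 52.2 and 49.4 CPM in uniSTING libraries, and 33.2 and 31.1 CPM in Mock libraries, a 1.58-fold rise (SE of log2 0.07, edgeR adjusted p = 1.12e-05). Mrpl41 (ENSMUSG00000036850, GRCm39 chr2:24864129-24865110), a protein without a bacterial counterpart, had 41.1 and 40.1 CPM in uniSTING libraries, and 25.4 and 26.5 CPM in Mock libraries, 1.56-fold (SE of log2 0.07, edgeR adjusted p = 1.34e-05). In each case the uniSTING libraries lay above the Mock libraries without overlap. Mrpl14 (ENSMUSG00000023939, GRCm39 chr17:45997248-46009421) faces the small subunit in the ribosome. It had 47.9 and 52.1 CPM in uniSTING libraries, and 32.7 and 34 CPM in Mock libraries, just under 1.5-fold (log2 fold change 0.58, edgeR adjusted p = 3.08e-05). Mrpl46, also without a bacterial counterpart, followed at 38.4 and 38.5 CPM in uniSTING libraries, and 26.2 and 27.2 CPM in Mock libraries, 1.44-fold (edgeR adjusted p = 5.97e-05).

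In the small subunit Mrps21 (ENSMUSG00000054312, GRCm39 chr3:95769946-95778831) led. It had 57.3 and 59.1 CPM in uniSTING libraries, and 33.2 and 37 CPM in Mock libraries, or 58.2 ± 1.22 and 35.1 ± 2.67 CPM (SD, n = 2 each). The rise was 1.66-fold (log2 fold change 0.73, SE 0.06, edgeR adjusted p = 4.39e-06), with no overlap of the groups. Mrps6 (ENSMUSG00000039680, GRCm39 chr16:91855158-91909115) had 34.9 and 39 CPM in uniSTING libraries, and 25.2 and 22.7 CPM in Mock libraries, 1.55-fold (SE of log2 0.08, edgeR adjusted p = 7.75e-05). Both proteins have bacterial counterparts in the small subunit. Mrps24, likewise, had 58.2 and 60 CPM in uniSTING libraries, and 41.9 and 42.4 CPM in Mock libraries, 1.40-fold (edgeR adjusted p = 2.02e-05). Mrps36, the dehydrogenase component, had 22.3 and 24.6 CPM in uniSTING libraries, and 15.1 and 17.4 CPM in Mock libraries, 1.44-fold (edgeR adjusted p = 5.19e-04).

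Mrps25, found in mitochondrial ribosomes alone, had 62.1 and 59.1 CPM in uniSTING libraries, and 43.2 and 39.8 CPM in Mock libraries, 1.46-fold (edgeR adjusted p = 2.16e-05). Of its exon length, 69.8% overlaps the gene Nr2c2. Counting used no strand, and its default leaves reads that overlap several genes uncounted, so reads there could not be assigned to Mrps25. The exon length used for Mrps25 still includes this stretch. Exons of 31 members (40.3%, against 34.5% of tested genes) overlapped another gene, by over 20% of their length in 9. With those 31 left out, 38 of 46 members rose (24.9% of all tested genes were called higher). The largest overlap was 77.8%, for Mrps34 with Mapk8ip3. Mrps34, a small subunit protein that in mice is needed for that subunit's stability, had 40.1 and 45.9 CPM in uniSTING libraries, and 34.1 and 40.1 CPM in Mock libraries, and did not pass (log2 fold change 0.21, edgeR adjusted p = 0.0693). Within a preparation it was higher in uniSTING both times, and it passed without uniSTING replicate 1 or without Mock replicate 2 (edgeR adjusted p = 3.51e-04 and 0.013). It also passed with the replicate number as a block, with no low count filter and with limma-voom (adjusted p = 6.73e-03, 0.011 and 0.0458).

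**Figure D2:**
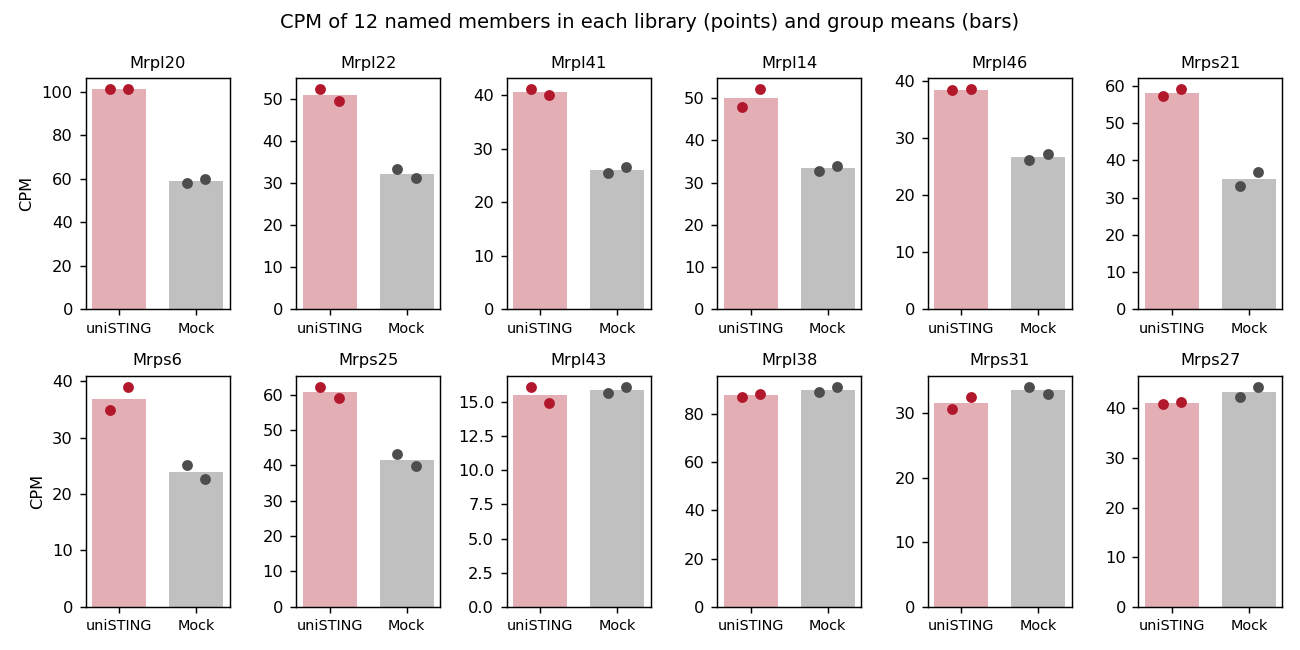
CPM of 12 named members in each library (points, 2 a group) with the group mean as a bar, uniSTING left and Mock right, each panel with its own axis from 0. Mrpl20, Mrpl22, Mrpl41, Mrpl14, Mrpl46, Mrps21, Mrps6 and Mrps25 have both uniSTING points above both Mock points, while in Mrpl43 and its neighbours in the lower row the bars are close to level.

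The members with the lowest fold changes sat near 1-fold and none of them passed. In the small subunit Mrps31 had 30.6 and 32.4 CPM in uniSTING libraries, and 34 and 33 CPM in Mock libraries (log2 fold change -0.086, SE 0.07, edgeR adjusted p = 0.316). Mrps27, an RNA-binding protein of the pentatricopeptide repeat family, had 40.8 and 41.2 CPM in uniSTING libraries, and 42.4 and 44.3 CPM in Mock libraries (log2 fold change -0.082, edgeR adjusted p = 0.291). Both genes had their uniSTING libraries below their Mock libraries, by little. Mrps2 had a log2 fold change of -0.073 with overlapping groups, Mrps18b one of 0.0068 and Mrps30 one of 0.026.

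In the large subunit Mrpl38 had 87.1 and 88.4 CPM in uniSTING libraries, and 88.9 and 91.1 CPM in Mock libraries (log2 fold change -0.037, SE 0.03, edgeR adjusted p = 0.389). Mrpl43 had 16.1 and 14.9 CPM in uniSTING libraries, and 15.7 and 16.1 CPM in Mock libraries (log2 fold change -0.046, edgeR adjusted p = 0.671). Mrpl4, which reaches into the exit tunnel, had a log2 fold change of -0.029, and Mrpl3, close to the peptidyl transferase centre, one of -0.0077. The uniSTING libraries lay just below the Mock libraries for Mrpl38, and the groups of the other 3 genes overlapped. Mrpl36, a bacterial-type protein of the large subunit, had 36.5 and 35.8 CPM in uniSTING libraries, and 33.5 and 36 CPM in Mock libraries (log2 fold change 0.053, edgeR adjusted p = 0.54).

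Large subunit genes of the stalk and of chain release rose. Mrpl12, part of the stalk that recruits translation factors and a binding partner of the mitochondrial RNA polymerase, had 223 and 220 CPM in uniSTING libraries, and 173 and 173 CPM in Mock libraries, 1.28-fold (edgeR adjusted p = 5.51e-07). Mrpl11, at the base of that stalk, had 92.5 and 88.7 CPM in uniSTING libraries, and 65.5 and 65.7 CPM in Mock libraries, 1.38-fold (edgeR adjusted p = 2.01e-06). Both genes had groups far apart relative to the spread of each. Mrpl58, a peptidyl-tRNA hydrolase that releases stalled chains and is also built into the large subunit, had 49.4 and 47.4 CPM in uniSTING libraries, and 41.8 and 37.8 CPM in Mock libraries, 1.22-fold (edgeR adjusted p = 4.29e-03).

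Mrps18a, Mrps18b and Mrps18c are paralogs, counterparts of 1 bacterial small subunit protein. Mrps18a had 58.8 and 56.4 CPM in uniSTING libraries, and 41.9 and 43.8 CPM in Mock libraries, 1.34-fold (edgeR adjusted p = 8.55e-05). Mrps18c had 21 and 23 CPM in uniSTING libraries, and 17.2 and 16 CPM in Mock libraries, 1.33-fold (edgeR adjusted p = 1.30e-03). Mrps18b had 31.3 and 31.5 CPM in uniSTING libraries, and 32.1 and 30.5 CPM in Mock libraries, and did not pass (edgeR adjusted p = 0.942). So the uniSTING libraries lay above the Mock libraries for Mrps18a and Mrps18c and inside their range for Mrps18b; the difference between the paralogs' changes was not tested. Mrps12, of the decoding centre, had 14 and 15.8 CPM in uniSTING libraries, and 14.5 and 13 CPM in Mock libraries (log2 fold change 0.13, edgeR adjusted p = 0.289).

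Per kilobase of exon, the mRNA of Mrpl12 stood highest, at 145 CPM per kb in uniSTING and 113 in Mock. Mrpl28, with 107 CPM per kb in uniSTING and 80.4 in Mock, and Mrpl34, with 93.9 in uniSTING and 88 in Mock, came next. Mrpl48 stood lowest, at 4.14 CPM per kb in uniSTING and 3.10 in Mock. Mrpl28 had 151 and 145 CPM in uniSTING libraries, and 111 and 111 CPM in Mock libraries, 1.33-fold (edgeR adjusted p = 8.68e-07). Mrpl34 had 58 and 56 CPM in uniSTING libraries, and 51.4 and 55.5 CPM in Mock libraries, and did not pass (edgeR adjusted p = 0.207). Level and change were only loosely tied over the 77 members (Spearman rho 0.28 between CPM per kb and log2 fold change, a description across genes that share libraries and exon length), and rho turned to -0.17 with the exon length trend, described below, removed.

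Close to the count floor, Mrps12, Mrps36 and Mrpl43 had the lowest minimum counts, 255, 267 and 277. Outside it stood Mrpl53, listed with 0 counts in all 4 libraries, of whose 790 exon bases 695 (88.0%) are shared with other annotated genes. Among the 5 pseudogenes of the family left out, Mrpl48-ps had 119 and 163 counts in uniSTING libraries, and 68 and 104 counts in Mock libraries. Reads that fit both Mrpl48 and this copy are lost by unique mapping.

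The exon length in the tables is the summed length of all annotated exons of a gene. Over all tested genes, log2 fold change fell with this length (Spearman rho -0.36 over 12972 genes), so that short genes had higher fold changes. Members are shorter than most: their median length was 2533 bases (range 607 to 8631), against 4153 bases over all tested genes. Large subunit genes had a median of 2541 bases and small subunit genes 2172 bases. Among the members rho was -0.24 (n = 77), with -0.18 in the large and -0.31 in the small subunit. These are descriptions across genes of the same 4 libraries.

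The fall with length was not even. Of the 25 shortest members (607 to 1664 bases) 21 rose (median log2 fold change 0.41), and all 5 members that rose at least 1.5-fold were among them. Of the 27 of middle length (1667 to 3332 bases) 16 rose, with a median of 0.21, and of the 25 longest (3682 to 8631 bases) 21 rose, with a median of 0.25. Single genes did not keep to the order. Mrps21 is the second shortest, at 739 bases, and rose 1.66-fold, but the shortest, Mrpl34 at 607 bases, did not pass. Mrps28, at 783 bases, had 46.4 and 45.2 CPM in uniSTING libraries, and 37.6 and 36.4 CPM in Mock libraries, 1.24-fold (edgeR adjusted p = 1.61e-03).

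At the long end, Mrpl48 (8152 bases) had 32.3 and 35.2 CPM in uniSTING libraries, and 25 and 25.5 CPM in Mock libraries, 1.34-fold (edgeR adjusted p = 6.00e-04). Mrpl15 (8487 bases) had 83.8 and 86.9 CPM in uniSTING libraries, and 70.6 and 70 CPM in Mock libraries, 1.22-fold (edgeR adjusted p = 7.59e-05). Mrps35 (8631 bases) had 73.2 and 74.8 CPM in uniSTING libraries, and 61 and 67.3 CPM in Mock libraries, 1.15-fold (edgeR adjusted p = 5.56e-03). All 3 rose, with no overlap of the groups.

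A fit that took out, library by library, the dependence of counts on exon length over all genes left 43 members higher and 5 lower, with a median log2 fold change of 0.19; 23.4% of all tested genes were then called higher and 22.2% lower. The 43 were all among the 58, and 15 of the 58 lost their call. The 5 that fell in this fit had not passed before: Mrpl34 (log2 fold change -0.19, edgeR adjusted p = 0.016), Mrpl36 (-0.18, adjusted p = 0.0499), Mrpl38 (-0.13, adjusted p = 6.58e-03), Mrpl43 (-0.24, adjusted p = 0.0287) and Mrps27 (-0.22, adjusted p = 0.0122). Both subunits had a median of 0.19, with 27 of 48 large and 16 of 29 small subunit genes higher. The medians by length became 0.17 for the 25 shortest, 0.072 for the middle 27 and 0.31 for the 25 longest, and rho turned to 0.34. Of the genes described above, Mrps28 and Mrps18c lost their call (log2 fold changes 0.046 and 0.17), and Mrpl20, Mrps25 and Mrpl48 kept it (0.59, 0.63 and 0.55). The length used for Mrps25 includes its overlap with Nr2c2.

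The table's length takes in more than the coding sequence of these genes. It was a median 3.7 times the coding length of the same gene in an older annotation (range 1.27 to 37 times). Coding lengths ran from 198 to 1329 bases with a median of 591 bases. Transcripts with these coding sequences were close to the table's length in Mrps25 (6073 and 6576 bases) but not in Mrps18a (884 and 3690 bases). By coding length rho was -0.45 over members (-0.28 large, -0.70 small) and -0.45 over 11352 tested genes. By the length of these transcripts it was -0.29 over members (-0.28 large, -0.35 small) and -0.45 over the 11352 genes. With the coding length trend removed, an alternative chosen after seeing the data, 29 members rose (37.7%, against 22.7% of all tested genes) and 3 fell, the median log2 fold change being 0.11 against 0.014 over all tested genes. Large subunit genes then had 21 rises, 3 falls and a median of 0.12, and small subunit genes 8 rises, no fall and a median of 0.11. Mrpl20 (log2 fold change 0.55), Mrpl22 (0.51), Mrpl46 (0.43) and Mrpl41 (0.40) remained called with it. Of the genes described above as risen, Mrpl58 (0.13, adjusted p = 0.141), Mrps36 (0.22, adjusted p = 0.0668), Mrps35 (0.13, adjusted p = 0.0538), Mrps28 (0.13, adjusted p = 0.107) and Mrps18c (0.18, adjusted p = 0.0921) lost their call. In this fit, tested genes outside the 11352 had no coding length and were not corrected. They are part of its values over all tested genes. The part of RNA quality or fragment size in the trend was not tested.

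**Figure D3:**
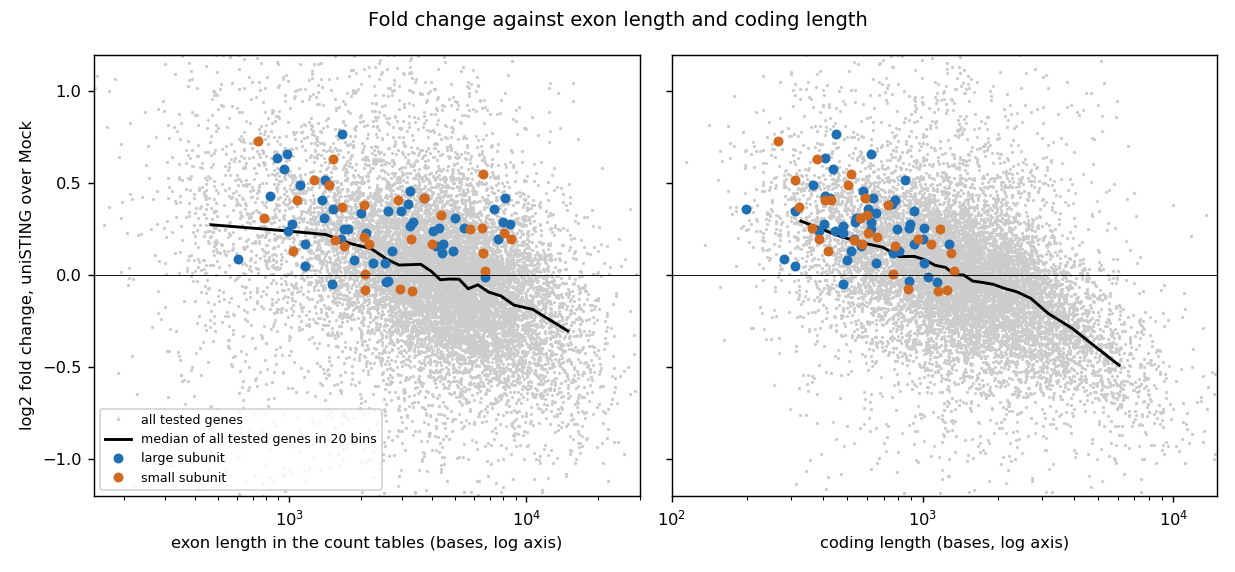
Log2 fold change, uniSTING over Mock, against exon length (left) and coding length (right), both on log axes; grey points are all tested genes, the black line is their median in bins of equal gene number, and coloured points are the members by subunit. The black line falls with length in both panels. Members lie mostly above it at long exon lengths, and closer to it against coding length. The fold changes are the same in both panels, so Mrpl20 and Mrps21 are highest in each.

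The other components of the ribosome did not move alike. All 5 proteins of the mitochondrial ribosome that have no Mrp symbol rose, with a median log2 fold change of 0.32 (24.9% of all tested genes were called higher). Chchd1, a small subunit protein, had 82.5 and 78.1 CPM in uniSTING libraries, and 56.4 and 55.8 CPM in Mock libraries, 1.43-fold (edgeR adjusted p = 3.07e-06). Aurkaip1, of the small subunit, rose 1.35-fold (edgeR adjusted p = 1.96e-05) and Gadd45gip1, of the large subunit, 1.25-fold (edgeR adjusted p = 6.74e-03). The GTP-binding small subunit protein Dap3 had 117 and 118 CPM in uniSTING libraries, and 112 and 102 CPM in Mock libraries, 1.10-fold (edgeR adjusted p = 0.0137). Ptcd3, at the mRNA entry, had 116 and 117 CPM in uniSTING libraries, and 109 and 106 CPM in Mock libraries, 1.09-fold (edgeR adjusted p = 7.99e-03). Without Mock replicate 2, and also with DESeq2, Dap3 and Ptcd3 did not pass and 3 of the 5 rose. Gadd45gip1 lost its call with the exon length trend removed (adjusted p = 0.0517) and, with Dap3, with the coding length trend removed (adjusted p = 0.0988 and 0.0554).

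The rRNAs went the other way. The small subunit rRNA gene mt-Rnr1 had 192 and 191 CPM in uniSTING libraries, and 238 and 223 CPM in Mock libraries (log2 fold change -0.27, SE 0.03, edgeR adjusted p = 3.77e-05). The large subunit rRNA gene mt-Rnr2 had 316 and 302 CPM in uniSTING libraries, and 391 and 380 CPM in Mock libraries (log2 fold change -0.32, SE 0.03, edgeR adjusted p = 2.39e-06). For both genes the uniSTING libraries lay below the Mock libraries, and both stayed lower with the exon length trend removed (-0.52 and -0.51). The ratio of the members' summed CPM to that of these rRNAs was 9.51 and 9.82 in uniSTING libraries, and 6.32 and 6.66 in Mock libraries. The sources used here do not give whether poly(A) RNA was selected or rRNA depleted, so levels of rRNA may reflect how it was carried through. Of 12 mRNA genes of mitochondrial DNA none rose and 9 fell (75%, against 25.4% of all tested genes), with a median log2 fold change of -0.17. In the cytosolic ribosome 75 of 82 protein genes rose (91.5%, against 24.9% of all tested genes) and 4 fell (4.88%), with a median of 0.33. With the exon length trend removed 62 of these 82 rose and 11 fell (median 0.20). With the coding length trend removed 58 rose and 8 fell (median 0.18).

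Assembly genes and translation factors were called higher in shares near that of all tested genes (24.9% higher, 25.4% lower). With the exon length trend removed, 24.1% of assembly genes and 25.0% of translation factors were higher, against 23.4% of all tested genes. In that fit 20.7% and 12.5% were lower, against 22.2%. Of 29 assembly and rRNA modification genes 6 rose (20.7%) and 5 fell (17.2%), and the median log2 fold change was 0.0078. The RNA helicase Dhx30 fell by 0.31 and the GTPase Noa1 by 0.26 on the log2 scale, and the acyl carrier protein Ndufab1 rose by 0.33 (edgeR adjusted p = 1.03e-05, 1.01e-04 and 5.22e-05). Of 16 translation factors and mRNA-binding proteins tested 3 rose (18.8%) and 1 fell (6.25%), with a median of 0.082; the rises were 1 with DESeq2 and 5 with a filter of at least 1 CPM in 2 libraries. Lrpprc, which stabilises mitochondrial mRNAs, fell by 0.31, while the initiation factors Mtif2 and Mtif3 rose by 0.30 and 0.34 (edgeR adjusted p = 7.77e-06, 2.60e-03 and 8.37e-03).

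Among 17 mitochondrial aminoacyl-tRNA synthetases 2 rose (11.8%) and 4 fell (23.5%; median 0.084), among them Iars2, for isoleucine, which fell by 0.15, Tars2, for threonine, which fell by 0.19, and Fars2, for phenylalanine, which rose by 0.42 (edgeR adjusted p = 7.65e-04, 5.63e-03 and 6.98e-03). No synthetase fell once the coding length trend was removed. The rises were 0 without Mock replicate 2 and 1 without uniSTING replicate 2 or Mock replicate 1, and the falls were 2 without uniSTING replicate 1 or Mock replicate 1. Among 10 genes of mitochondrial DNA transcription and replication 1 rose (10%) and 3 fell (30%; median -0.038). The helicase Twnk fell by 0.42 and the polymerase Polg by 0.18, and the single-stranded DNA-binding protein Ssbp1 rose by 0.23 (edgeR adjusted p = 9.46e-05, 5.28e-03 and 6.19e-03). Polg, Iars2 and Tars2 did not pass with the exon length trend removed (adjusted p = 0.73, 0.839 and 0.138). With the coding length trend removed, 0 of the 10 transcription and replication genes were higher and 2 lower, so Ssbp1 lost its call.

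Of 8 nuclear regulators of such genes tested, 2 rose (Gabpb1 and Esrra, by 0.18 and 0.21 on the log2 scale, named after their values were seen) and 5 fell, the median log2 fold change was -0.18, and 25.4% of all tested genes were called lower. With the exon length trend removed 4 fell and the median was -0.054. The rises were 1 without Mock replicate 1 or Mock replicate 2, and 0 with DESeq2. The coactivator Pprc1 had 127 and 128 CPM in uniSTING libraries, and 188 and 195 CPM in Mock libraries (log2 fold change -0.58, edgeR adjusted p = 4.30e-08). Myc, a transcription factor of growth and ribosome synthesis, had 295 and 296 CPM in uniSTING libraries, and 394 and 390 CPM in Mock libraries (log2 fold change -0.41, edgeR adjusted p = 4.13e-08). Gabpa, the DNA-binding subunit of an ETS factor known for binding promoters of mitochondrial genes, had a log2 fold change of -0.17 (edgeR adjusted p = 2.21e-03). Both uniSTING libraries lay below both Mock libraries for Pprc1, Myc and Gabpa. Ppargc1a, a coactivator of mitochondrial biogenesis, had 0 and 1 counts in uniSTING libraries, and 0 and 0 in Mock libraries, and was not tested.

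**Figure D4:**
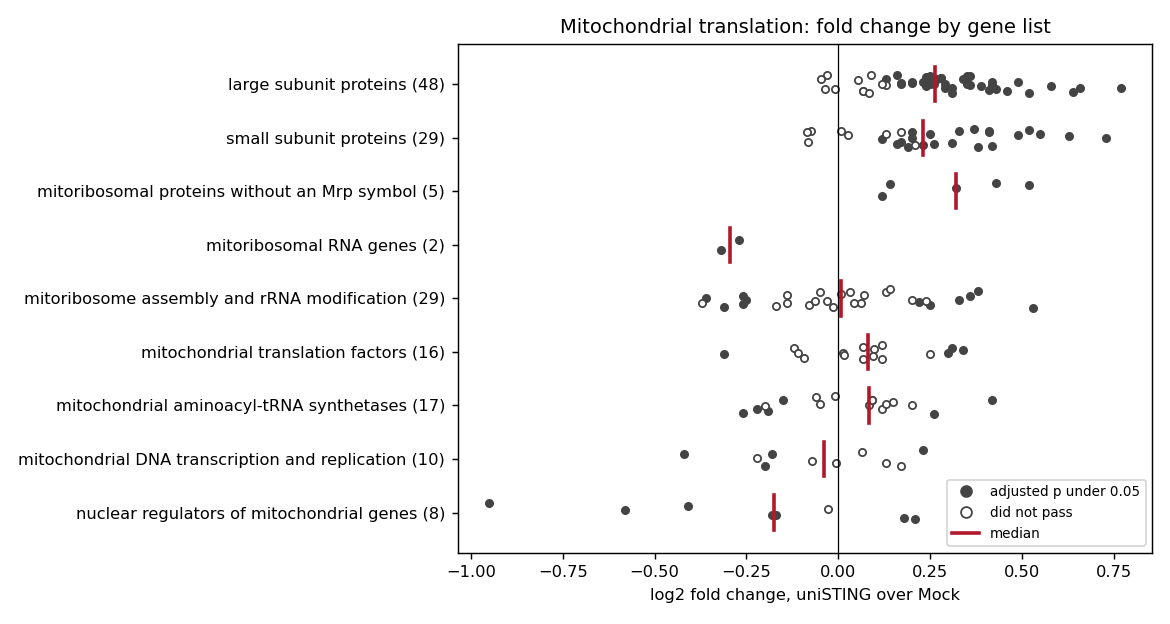
Log2 fold change, uniSTING over Mock (x axis), of each tested gene in the 2 subunits and in 7 lists of genes of mitochondrial translation, 1 row a list with its number of genes; red lines are medians, filled points passed at an adjusted p under 0.05 and open points did not. The protein rows lie mostly right of 0 (medians 0.27, 0.23 and 0.32), the rRNA genes left of it, and the other lists spread to both sides.

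Promoter windows of members were searched for motifs of nuclear factors known for binding near the starts of mitochondrial genes. The windows were 250 bases before to 50 bases after the RefSeq gene start (GRCm38.p6), and 68 of the 77 members had one. The ETS core CCGGAAGT, the NRF1 core (GCGCA, any base, GCGC) and the YY1 motif AAGATGGCG were searched on both strands. At least 1 of them was in 30 of 68 member windows (44.1%), in 22.1% of 9254 windows of tested genes and in 9.61% of all 27025 windows. By motif, ETS matched 11 (16.2%, against 9.08% of tested genes), NRF1 13 (19.1%, against 11.2%) and YY1 8 (11.8%, against 3.48%). The CCAAT box matched 26 (38.2%, against 39.2%). Matches of these letters are not binding sites, and windows at the outermost annotated start can miss the start in use. Among the members that rose, 12 of 52 windows had an NRF1 match, 8 an ETS match and 5 a YY1 match; among those that did not pass, 1, 3 and 3 of 16.

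The following windows show both kinds of response. Mrps21 (chr3:95871465-95871764, minus strand), Mrpl14 (chr17:45686099-45686398, plus strand) and Mrps24 (chr11:5707652-5707951, minus strand) rose and hold a match. Mrpl22 (chr11:58171414-58171713, plus strand) rose and holds none. Mrpl43 (chr19:45006393-45006692, minus strand) and Mrps27 (chr13:99344536-99344835, plus strand) did not pass; the first holds an ETS match and the second an ETS and a YY1 match. Each is read 5′ to 3′ on the gene's strand, with ETS, NRF1 and YY1 matches in capitals.
Mrps21: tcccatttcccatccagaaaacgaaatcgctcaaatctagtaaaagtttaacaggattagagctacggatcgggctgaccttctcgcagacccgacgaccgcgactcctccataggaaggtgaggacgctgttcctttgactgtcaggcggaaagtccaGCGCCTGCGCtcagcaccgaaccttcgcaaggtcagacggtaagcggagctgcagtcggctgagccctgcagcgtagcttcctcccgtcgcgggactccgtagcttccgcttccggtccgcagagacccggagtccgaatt
Mrpl14: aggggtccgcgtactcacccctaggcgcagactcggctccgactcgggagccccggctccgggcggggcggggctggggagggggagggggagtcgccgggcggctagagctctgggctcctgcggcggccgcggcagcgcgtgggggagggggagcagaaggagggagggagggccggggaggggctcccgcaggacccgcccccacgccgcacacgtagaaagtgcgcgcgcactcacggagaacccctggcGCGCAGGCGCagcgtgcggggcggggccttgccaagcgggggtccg
Mrps24: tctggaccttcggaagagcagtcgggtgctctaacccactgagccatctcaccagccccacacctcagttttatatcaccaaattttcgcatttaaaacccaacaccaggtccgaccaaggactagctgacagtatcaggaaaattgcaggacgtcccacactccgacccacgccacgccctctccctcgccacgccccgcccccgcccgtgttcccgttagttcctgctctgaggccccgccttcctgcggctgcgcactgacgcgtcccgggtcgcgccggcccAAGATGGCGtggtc
Mrpl22: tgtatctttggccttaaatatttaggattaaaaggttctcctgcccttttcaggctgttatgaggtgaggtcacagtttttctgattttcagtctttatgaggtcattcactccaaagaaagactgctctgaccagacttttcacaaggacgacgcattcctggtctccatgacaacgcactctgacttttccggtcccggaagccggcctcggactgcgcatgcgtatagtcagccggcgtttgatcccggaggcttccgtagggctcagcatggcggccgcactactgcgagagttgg
Mrpl43: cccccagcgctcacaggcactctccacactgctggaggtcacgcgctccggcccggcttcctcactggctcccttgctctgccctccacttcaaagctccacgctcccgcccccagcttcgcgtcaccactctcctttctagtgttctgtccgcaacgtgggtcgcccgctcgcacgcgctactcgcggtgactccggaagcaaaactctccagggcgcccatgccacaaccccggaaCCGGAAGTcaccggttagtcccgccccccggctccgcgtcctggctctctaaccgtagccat
Mrps27: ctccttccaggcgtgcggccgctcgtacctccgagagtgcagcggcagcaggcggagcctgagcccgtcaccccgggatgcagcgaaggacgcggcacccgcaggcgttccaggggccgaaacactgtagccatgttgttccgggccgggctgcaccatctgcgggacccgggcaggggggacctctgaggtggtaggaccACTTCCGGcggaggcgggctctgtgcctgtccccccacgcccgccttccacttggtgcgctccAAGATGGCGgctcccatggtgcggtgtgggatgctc

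The NRF1 match of Mrps21 lies before the gene start and that of Mrpl14 just after it, as does the YY1 match of Mrps24. Mrps21, with an NRF1 match, rose 1.66-fold, and Mrps24, with a YY1 match, also rose. Mrpl43, with an ETS match, and Mrps27, with an ETS and a YY1 match, did not pass. These windows are chosen examples, and whether a match of any motif goes with a rise was not tested.

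Some members start next to another gene on the opposite strand, and the share of all tested genes that do so is not given here. In the tables' GRCm39 coordinates, 36 members had such a head-to-head neighbour with starts at most 1000 bases apart, and for 28 of them a tested neighbour lay outside the family. Of these 28 neighbours 8 rose (28.6%, against 24.9% of all tested genes), 4 fell (14.3%, against 25.4%) and 16 did not pass, with a median log2 fold change of 0.0064. Of the 28 members opposite them 20 rose and 8 did not pass, with a median of 0.24. Neighbours were not matched to members by exon length (898 bases in Ndufs6, 6267 bases in Ncapd2), and the part of length here was not tested. In 5 pairs both rose.

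The 4 most abundant members of such pairs all rose, though Mrpl9 did not pass with DESeq2 or with either length trend removed. Mrpl13, a bacterial-type protein of the large subunit, had 308 and 304 CPM in uniSTING libraries, and 251 and 250 CPM in Mock libraries, 1.22-fold (edgeR adjusted p = 1.18e-06). Its neighbour Mtbp had a log2 fold change of -0.077 (adjusted p = 0.0849). Mrps7, of the small subunit head, had 96.1 and 92.9 CPM in uniSTING libraries, and 72.1 and 72.7 CPM in Mock libraries, 1.30-fold (edgeR adjusted p = 5.02e-06). Its neighbour Gga3 had a log2 fold change of -0.073 (adjusted p = 0.345). Mrpl30 and Mitd1, 66 bases apart, both rose, with log2 fold changes of 0.27 and 0.55 (adjusted p = 4.70e-05 and 4.68e-05). With the coding length trend removed Mrpl30 did not pass (0.066, edgeR adjusted p = 0.131).

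Mrpl9 rose by 0.13 on the log2 scale (edgeR adjusted p = 0.0236), and its neighbour Oaz3 was too low to test. With DESeq2 Mrpl9 did not pass (adjusted p = 0.159). Nor did it pass with the exon length trend removed (0.048, edgeR adjusted p = 0.402) or the coding length trend removed (0.025, edgeR adjusted p = 0.677). Without uniSTING replicate 2 or without Mock replicate 2 Mrpl9 did not pass (adjusted p = 0.19 and 0.317). Mrpl46 and Mrps11 are each other's neighbours, with starts that overlap by 412 bases. Mrpl46 rose, as given above, and Mrps11 had 23.2 and 22.7 CPM in uniSTING libraries, and 19.1 and 21.5 CPM in Mock libraries (log2 fold change 0.17, edgeR adjusted p = 0.0888).

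In 2 pairs, named after their values were seen, the member rose and its neighbour fell. Mrpl51 had 50.5 and 51.7 CPM in uniSTING libraries, and 42.1 and 44.3 CPM in Mock libraries (log2 fold change 0.24, edgeR adjusted p = 4.77e-03), and the condensin gene Ncapd2, 100 bases away, fell by 0.34 on that scale (adjusted p = 7.83e-06). Mrpl21 had 60.2 and 60.5 CPM in uniSTING libraries, and 46.9 and 48.3 CPM in Mock libraries (log2 fold change 0.34, edgeR adjusted p = 2.04e-04), and Ighmbp2 fell by 0.34 (adjusted p = 0.0156). In 5 pairs with a neighbour outside the family, also named after seeing values, the member did not pass and the neighbour changed. Ndufs6, a complex I subunit opposite Mrpl36, rose by 1.02 (adjusted p = 2.46e-07), Fau, opposite Mrpl49, by 0.35 (adjusted p = 3.12e-08) and Ndufb5, opposite Mrpl47, by 0.23 (adjusted p = 1.63e-04). Ppp1r10, opposite Mrps18b, fell by 0.32 (adjusted p = 1.04e-03), and Twnk, opposite Mrpl43, fell by 0.42. Exons of Mrpl43 overlap Twnk over 33.4% of their length, and reads there cannot be assigned to one of them.

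**Figure D5:**
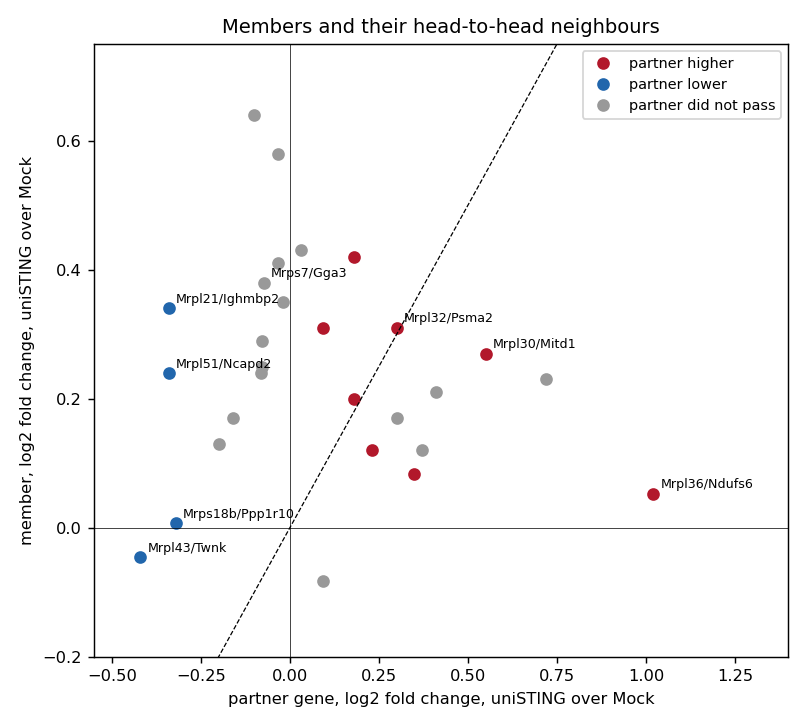
Log2 fold change, uniSTING over Mock, of 28 members (y axis) against that of their head-to-head neighbour outside the family (x axis), with the line of equal change dashed; colour gives the neighbour's call. Members lie between -0.082 and 0.64 and mostly above 0, whereas neighbours spread to both sides of 0, from Twnk (-0.42) to Ndufs6 (1.02).

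Most calls stood in each fit that left out 1 library. Of the 58 calls, 45 were kept in all 4 such fits and 13 were lost in at least 1, with a log2 fold change of at most 0.37 in the fit of all libraries. The largest of these was Mrps33, a small subunit protein, with 32.3 and 33 CPM in uniSTING libraries, and 22.9 and 27.5 CPM in Mock libraries. Its log2 fold change was 0.37 (edgeR adjusted p = 4.53e-03), and 0.24 (adjusted p = 0.058) without Mock replicate 1. The call of 25 members changed in such a fit or with the exon length trend removed, Mrps18c, Mrps33 and Mrpl18 being those with the largest fold change. Mrpl18, which had 65.1 and 63.4 CPM in uniSTING libraries, and 49.5 and 53.6 CPM in Mock libraries (log2 fold change 0.31, edgeR adjusted p = 5.65e-04), lost its call with that trend removed (0.10, adjusted p = 0.128).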

How the data were processed

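RNA-seq of 4T1 cells gave 1 table per library, 2 for uniSTING mRNA and 2 for Mock (EGFP) mRNA, grouped by the sample titles. The authors deposited unnormalised counts for each gene beside an exon length in bases, which was used as length. Per the file headers, the authors counted with featureCounts (Subread 2.0.1), in paired-end mode without a strand option, over exons by gene on the Ensembl annotation of GRCm39, from uniquely mapped reads. Its default leaves reads that overlap several genes uncounted. Per the submitters' processing notes, alignment was with HISAT2, of a version the sources used here do not give. Per the labels' protocols, the library kit was NEBNext Ultra RNA.

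Symbols matched 52093 of 53647 gene identifiers. Counts were tested with edgeR 4.0.16 (R 4.3.3): TMM, filterByExpr on the group (at least 10 counts, 15 in total), glmQLFit, glmQLFTest on group, and Benjamini-Hochberg adjustment over 12972 genes at 0.05. CPM is over TMM-scaled totals, and values are given as mean ± SD or per library. SEs of log2 fold changes are approximate, from the F statistic. Length trends were removed per library by lowess (span 0.3, as offsets). Coding lengths came from GENCODE M21 (GRCm38) by gene identifier, exon overlaps from bedtools 2.31.1 in GRCm39 coordinates, and promoter windows from RefSeq (GRCm38.p6). Scripts were tested on simulated data. Alternatives were other scalings (DESeq2's size factors, library totals), filters and count floors, DESeq2 1.42.0, limma-voom (limma 3.58.1), a replicate block, leaving out each library, length and GC trends, another subunit assignment and leaving out overlapping members. The coding length trend was added after seeing the data.

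The members and gene lists were chosen with earlier results of these data known. Named were, per subunit, the 5 highest and 5 lowest fold changes; the 3 highest levels per length; the 3 shortest and 3 longest; a panel by role; those next to the count floor; the 3 largest fold changes among calls that changed; the 3 smallest p per list (all of the lists of other ribosomal proteins and rRNA genes); and the 4 most abundant head-to-head members. Exceptions are named as such. Mrpl48, the lowest level per length, is also among the longest. Mtrfr of the translation factor list had no row under that symbol, and 1 regulator was too low to test. A marker gene among those checked is not reported here by name. Tests cover these libraries only.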

Additional observations from a re-analysis of the deposited data

How the results depend on the processing

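The count of members called higher stayed between 42 and 59 under every scaling, filter, tool, block, leave-one-out and exon length setting tried (46 with DESeq2, 51 to 56 with 1 library left out), except 29 with the coding length trend removed and 38 of 46 with overlapping members left out. By subunit these were 21 large and 8 small with the coding length trend removed, and 23 large without overlapping members. Of all tested genes, 2159 were called higher with DESeq2, 2846 with length and GC trends removed and 2950 with the coding length trend removed. Members called lower were 5 with the exon length trend removed, 3 with length and GC trends removed and 3 with the coding length trend removed. In these 3 fits the median log2 fold change was 0.19, 0.18 and 0.11 over members, 0.19, 0.19 and 0.12 in the large subunit, and 0.19, 0.15 and 0.11 in the small subunit, and rho with length was 0.34, 0.12 and -0.15. The median was 0.24 (large subunit 0.25) with library totals alone. With a floor of 500 counts the large subunit median was 0.26 and rho -0.19; without overlapping members they were 0.28 and -0.32. Leaving out 1 library gave medians of 0.24 to 0.27 over members, 0.26 to 0.27 in the large and 0.20 to 0.28 in the small subunit, and rho of -0.27 to -0.22.

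With the exon length trend removed, 11 members with a positive log2 fold change turned negative, 4 of them called higher with all libraries (at most 0.24). With the coding length trend removed 13 did, 6 of them called (at most 0.36). Leaving out 1 library gave log2 fold changes of -0.071 to 0.056 (Mrpl3), -0.0037 to 0.11 (Mrpl36), -0.076 to 0.0042 (Mrpl4), -0.095 to 0.0086 (Mrpl43), -0.031 to 0.032 (Mrps18b), -0.15 to 0.0013 (Mrps2) and -0.013 to 0.051 (Mrps30). Of the named genes, with the exon length trend removed, Mrpl3 was at 0.082, Mrpl36 at -0.18, Mrps18b at -0.13, Mrpl34 at -0.19 and Mrps12 at -0.11. With length and GC trends removed, Mrpl38 was at 0.0065, Mrpl3 at 0.042, Mrpl36 at -0.16, Mrps18b at -0.099, Mrps30 at -0.018, Mrpl34 at -0.079 and Mrps12 at -0.036. With the coding length trend removed, Mrpl36 was at -0.25, Mrps18b at -0.11, Mrpl34 at -0.24, Mrps12 at -0.11 and Mrpl51 at -0.015. With library totals alone, Mrps18b was at -0.0094. The cause was not tested.

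Among 10446 genes with at least 50 counts in every library, same-numbered libraries did not deviate together (correlation 0.0325), so the numbers were not taken as pairs. Genes of lower counts were not part of this check, and a batch shared by number was not tested in them. More genes had a count in the libraries numbered 1 (18478 in uniSTING, 18152 in Mock) than in those numbered 2 (17879 and 17604). With the replicate block 59 members, 3374 of all genes higher and 3403 lower were called. With 2 libraries a group, small differences near 0 are not resolved.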
